A study of Mus musculus with 2 samples.

Results

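Complement is a set of secreted and membrane-bound proteins of innate immunity, and 9 genes that encode its components and regulators, out of 49492 genes in the table, were followed in mouse mammary basal cells grown with or without M2-like macrophages. The genes were taken by name and were C1ra and C1s1 (proteases of the C1 complex), C4b and C2 (the classical pathway), C3 and Cfb (the central component and the alternative pathway), and the regulators Cfi, Cd55 and Cd59a. Basal cells were sorted by FACS from the mammary glands of adult female mice of wild-type genotype, as cells positive for CD24 and high for CD29 after blood and endothelial cells had been gated away. They were embedded in a matrix gel in medium with EGF and insulin, transferrin and selenium, and were cultured alone (ctrl) or below a porous insert that held macrophages made from bone marrow and polarised with IL-4 and IL-13 (M2). The co-culture ran for 11 to 14 days with macrophages renewed at intervals, and RNA was taken from the cultured cells. Each group was 1 library, and the labels do not say how many mice or wells it pooled.

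In the classical pathway, C1r and C1s are the proteases that antibody-bound C1 switches on, and they cut C4 and C2 to build an enzyme that splits C3. The alternative pathway amplifies the same step with factor B, the product of Cfb, which is the counterpart of C2. Split C3 attaches to nearby surfaces as an opsonin and leads on to the terminal pathway, while CD55 and factor I stop the C3-splitting enzymes and CD59 blocks the membrane pore. The liver makes most complement in plasma, but epithelial cells, fibroblasts and macrophages also transcribe parts of the system, and complement proteins are present in milk.

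The ctrl library held 26912610 reads in genes and the M2 library 29413844. A count of 3 reads, set here as the limit of detection, stands for 0.109 CPM (counts per 1000000 reads) in ctrl and 0.104 in M2. The 95% Poisson interval of a count of 0 reaches 0.134 CPM in ctrl and 0.128 in M2. CPM here are reads over library sizes after TMM scaling (a trimmed mean of log ratios between libraries). With no replicates, each difference below is between 2 libraries and has no replicate check, the exact binomial test used compares those libraries and not the conditions, and all intervals are 95% intervals that cover counting error only. Defining markers of the basal label were abundant, as Krt14 stood at 2985 CPM in ctrl and 2393 in M2 and Krt5 at 2053 and 2902, and luminal keratins were also abundant in both, with Krt8 at 1088 and 1261 CPM. The reads were those of a whole culture, in which fewer cells of a type and less RNA per cell cannot be told apart.

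Among the 9 genes, the components other than C4b were higher in the M2 library. Of the 9 genes, 8 had at least 10 reads over both libraries and were tested, and Cfi did not reach this limit. C1ra, C1s1, C2, C3 and Cfb rose, C4b fell, and Cd55 and Cd59a were not called, where a call needed an adjusted p under 0.05 over all genes tested and at least a 2-fold difference. Across all 19233 genes tested, 8.16% were called higher and 6.55% lower by this rule. The median log2 fold difference was 2.74 over the 8 complement genes and -0.0032 over all genes tested. Over the 22 other complement genes tested, described below, it was 0.80. The 9 genes were chosen with earlier results of these data known, so their contrast with all genes depends in part on that choice. Reads of the 9 genes summed to 5990 in ctrl and 37520 in M2, which is 218 and 1302 CPM and a 5.97-fold difference. Without C3 the sums were 194 and 462 CPM, a 2.38-fold difference.

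**Figure D1:**
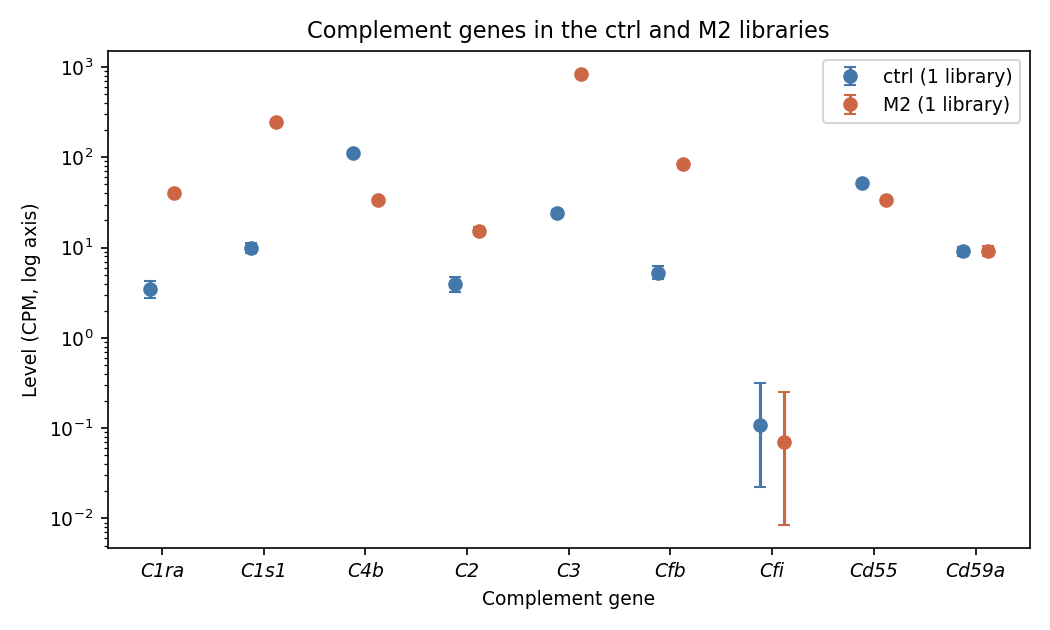
Level of each of the 9 complement genes in CPM (log axis) in the ctrl and M2 libraries, with 1 point per library and bars for the 95% Poisson interval of its reads. C1ra, C1s1, C2, C3 and Cfb lie higher in M2, C4b and Cd55 lie lower, Cd59a is level at 9.06 and 9.13 CPM, and Cfi lies near the bottom in both.

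Both proteases of the C1 complex rose. C1s1, which encodes the protease C1s (chromosome 6, 124530345 to 124542359, minus strand), had 272 reads in ctrl and 7103 in M2, or 9.90 and 246 CPM. The M2 level was 24.9-fold higher, with an interval of 22.0 to 28.2. C1ra, which encodes C1r, the protease that activates C1s (chromosome 6, 124512405 to 124523443, plus strand), had 95 and 1147 reads, or 3.46 and 39.8 CPM. It was 11.5-fold higher in M2 (9.33 to 14.3; adjusted p = 1.18e-217, exact binomial test). Per length, C1s1 exceeded C1ra 2.73-fold in ctrl (2.15 to 3.48) and 5.90-fold in M2 (5.54 to 6.28), so the gap between the partner proteases was wider in M2.

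These genes lie in a cluster of C1 protease genes, and the whole cluster was higher in M2. In coordinate order, C1ra ends 6901 bases before C1s1, C1rl lies 1761 bases before C1ra, and the duplicated genes C1rb and C1s2 follow. C1rb had 7 and 156 reads and was 21.2-fold higher, C1s2 had 20 and 214 reads and was 10.2-fold higher, and C1rl, a C1r-like protease gene, had 35 and 183 reads and was 4.98-fold higher. Because C1ra and C1rb, and C1s1 and C1s2, are close duplicates, reads could have been exchanged within each pair. Reads of C1ra with C1rb together gave a log2 difference of 3.59 against 3.51 for C1ra alone, and C1s1 with C1s2 gave 4.57 against 4.63. A gene annotated on the opposite strand, Gm16567, lies wholly inside exons of C1s1 and covers 18.4% of them. It was listed with 73 and 1614 reads. As the use of strand is not stated, these reads cannot be told apart from those of C1s1.

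The components that C1s cuts went in opposite directions. C4b, the gene for complement C4 (chromosome 17, 34728380 to 34743882, minus strand), had 3038 reads in ctrl and 964 in M2, or 111 and 33.5 CPM. It was 3.31-fold lower in M2, a log2 fold difference of -1.72 (-1.83 to -1.62; adjusted p = 1.33e-267, exact binomial test). Its duplicate C4a had far fewer reads, 110 and 54, and was also called lower, at -1.08 on the log2 scale (-1.59 to -0.61). Summing C4b with C4a left the difference at -1.70, with the direction the same. C2 (chromosome 17, 34862604 to 34898265, minus strand), whose product joins C4 in the C3-splitting enzyme, had 108 and 444 reads, or 3.93 and 15.4 CPM. It was 3.92-fold higher in M2 (3.17 to 4.88; adjusted p = 6.46e-45, exact binomial test).

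C3 had the widest difference of the 9 genes. C3 (chromosome 17, 57203970 to 57228136, minus strand), where the pathways meet, had 666 reads in ctrl and 24213 in M2, or 24.2 and 840 CPM. The level in M2 was 34.7-fold higher (32.1 to 37.5). Ranked by level per length among the genes tested, C3 moved from percentile 55.2 in ctrl to 98.4 in M2. Cfb (chromosome 17, 34856374 to 34862518, minus strand), the protease of the alternative pathway, had 145 and 2419 reads, or 5.28 and 83.9 CPM. It was 15.9-fold higher in M2 (13.4 to 18.9) and moved from percentile 36.7 to 89.6. Clu, the gene of the soluble inhibitor clusterin, exceeded C3 18.2-fold per length in ctrl (16.8 to 19.8) and 2.43-fold in M2 (2.39 to 2.47).

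Cfb and C2 lie 85 bases apart, and an annotated gene that runs through both, Gm20547, had 188 reads in ctrl and 2596 in M2. Of its 3902 exon bases, 100% lie in exons of C2 or Cfb, on the same strand, and it covers 79.5% of the exon bases of Cfb and 42.8% of those of C2. Reads in the shared exons may therefore be listed under more than 1 gene, and the values of C2 and Cfb are uncertain to that extent. Within 100 kb of C2 and Cfb, and leaving out complement genes and Gm20547, 19 genes were tested, 2 were called higher (Cyp21a1 with 2 and 15 reads and Slc44a4 with 6 and 39) and 0 lower, and the median log2 difference was -0.18. Among the neighbours not called were Nelfe at 0.23 (442 and 544 reads) and Ehmt2 at -0.06 (3609 and 3630 reads). Around C3, 6 genes were tested, the median was 1.07, and 3 were called higher, namely Mir6978 (0 and 34 reads), Gm11110 at 1.97 (8 and 36 reads) and Vav1 at 1.93 (12 and 51 reads). The others around C3 were not called, with Gpr108 at 0.05, Trip10 at 0.20 and Tnfsf9 at 0.046. Around C1ra and C1s1, 1 of 2 was higher (Clstn3 at 2.41, with 6 and 38 reads) and Pex5 stood at 0.06. Around C4b, 1 was higher (Cyp21a1) and 1 lower of 9, with a median of -0.24. Around Cd55, 2 of 3 were lower, with a median of -1.13, and around Cd59a 0 of 3 were called, with a median of -0.21. The lower gene near C4b, Tnxb, the gene of the matrix protein tenascin-X, had 86 and 4 reads. Apart from complement genes, Gm20547 and Gm16567, every gene tested within 100 kb of each locus entered these counts and medians. The neighbours named were partly chosen after their values were seen. The windows around C4b and around C2 and Cfb overlap and share genes, Cyp21a1 among them.

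Start sites of 5 of the 9 genes were present in the RefSeq promoter table for GRCm38.p6. The 250 bases before the start are given for C3 and C1s1, the genes with the widest differences, and for Cd55 and Cd59a, which were not called. Bases in capitals are matches to any motif searched.
C3 (chr17:57228137-57228386, minus strand): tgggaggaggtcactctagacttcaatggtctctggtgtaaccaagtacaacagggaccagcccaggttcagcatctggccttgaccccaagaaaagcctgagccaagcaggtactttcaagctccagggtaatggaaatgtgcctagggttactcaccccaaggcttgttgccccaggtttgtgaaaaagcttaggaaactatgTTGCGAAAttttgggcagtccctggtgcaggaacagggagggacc
C1s1 (chr6:124542360-124542609, minus strand): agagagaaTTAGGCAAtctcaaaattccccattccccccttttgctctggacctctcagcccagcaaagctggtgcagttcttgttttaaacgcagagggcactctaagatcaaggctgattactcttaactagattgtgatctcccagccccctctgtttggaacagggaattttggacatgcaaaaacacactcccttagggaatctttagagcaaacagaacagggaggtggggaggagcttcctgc
Cd55 (chr1:130462745-130462994, minus strand): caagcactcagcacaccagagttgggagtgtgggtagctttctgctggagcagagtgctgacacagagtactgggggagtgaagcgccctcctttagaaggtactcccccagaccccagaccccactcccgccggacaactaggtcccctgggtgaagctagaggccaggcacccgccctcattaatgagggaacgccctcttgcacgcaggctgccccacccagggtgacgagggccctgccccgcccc
Cd59a (chr2:104095551-104095800, plus strand): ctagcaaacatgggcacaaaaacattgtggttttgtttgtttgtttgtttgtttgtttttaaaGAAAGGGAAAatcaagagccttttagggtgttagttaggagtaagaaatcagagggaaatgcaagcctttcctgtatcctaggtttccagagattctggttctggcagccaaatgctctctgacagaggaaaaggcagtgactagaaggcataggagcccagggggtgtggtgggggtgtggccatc
The motifs searched on both strands were the NF-kB consensus, TTCNNNGAA for STAT factors, TTGCNNAA for C/EBP factors, TGANTCA for AP-1, and GAAA repeated after 2 further bases for IRF factors. C3 held a C/EBP match 45 to 38 bases before its start and C1s1 held another on the opposite strand, 242 to 235 bases before its start, while 9.56% of all 32851 promoters held at least 1. Cd59a held an IRF match (2.98% of all promoters), 187 to 178 bases before its start. None of the 5 promoters held a match to the NF-kB (7.25% of all promoters), STAT (7.02%) or AP-1 (6.75%) motif. A match is a description of letters only. C4b, C2, Cfb and Cfi had no entry, and the RefSeq start of C1ra lies 216 bases inside the gene as the table lists it, so its promoter is not given.

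Of the regulators among the 9 genes, Cd55 and Cd59a did not share the rise of C3, and Cfi had too few reads to tell. The soluble regulators Serping1 and Clu, described below, were called higher. Cd55 (chromosome 1, 130439027 to 130462744, minus strand), the gene of decay-accelerating factor, which takes apart the C3-splitting enzymes on cell surfaces, had 1414 reads in ctrl and 965 in M2, or 51.5 and 33.5 CPM. It differed by -0.62 on the log2 scale (-0.74 to -0.50; adjusted p = 2.26e-24, exact binomial test), which was under 2-fold, and it was not called. Its duplicate Cd55b had 0 reads in both libraries. Cd59a (chromosome 2, 104095801 to 104115354, plus strand), the gene of the inhibitor of the membrane pore, had 249 and 263 reads, or 9.06 and 9.13 CPM, a log2 difference of 0.0094 with an interval of -0.25 to 0.27. Its sign turned to -0.05 when libraries were scaled by total reads. Cfi (chromosome 3, 129835884 to 129875332, plus strand), the gene of the protease factor I that degrades activated C3 and C4, had 3 reads in ctrl and 2 in M2. Both counts were at or under the limit of detection, so a difference was not detectable at this depth.

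The order of the genes by level was also different in each library. Levels per length are given as RPKM, that is CPM per kilobase of exon, and neighbours in the order are called close where their Poisson intervals overlap. In ctrl, C4b led with 19.4 RPKM, followed by Cd55 with 10.6, Cd59a with 5.01, C3 with 4.71, C1s1 with 3.16, Cfb with 1.87, C1ra with 1.16, C2 with 1.02 and Cfi with 0.049. Cd59a and C3 were close, as were C1ra and C2. In M2, C3 led with 163 RPKM, followed by C1s1 with 78.8, Cfb with 29.7, C1ra with 13.4, Cd55 with 6.90, C4b with 5.87, Cd59a with 5.04, C2 with 3.98 and Cfi with 0.031. Only C4b and Cd59a were close in M2. C4b thus exceeded C3 4.12-fold per length in ctrl (3.79 to 4.49), and C3 exceeded C4b 27.8-fold in M2 (26.1 to 29.7).

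**Figure D2:**
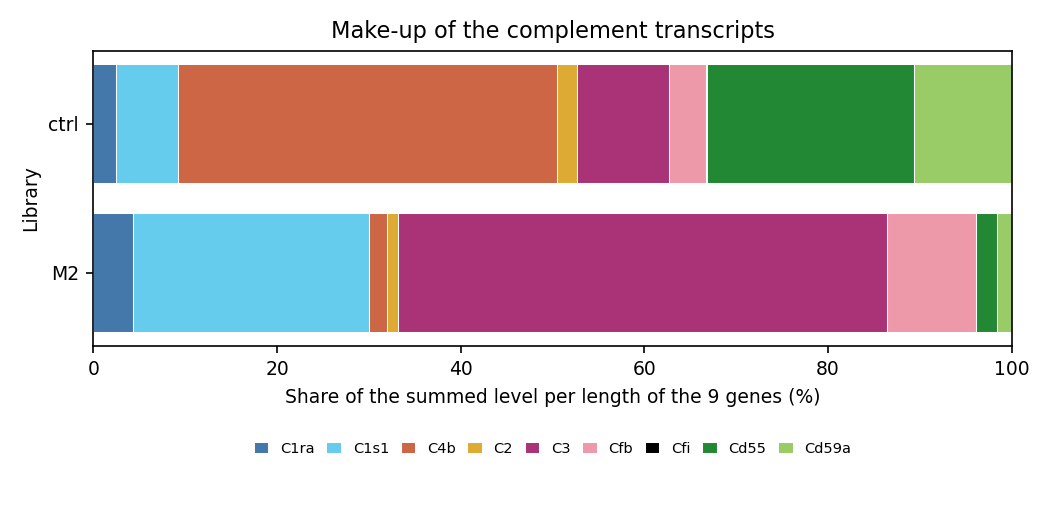
Share of the summed level per length (RPKM) of the 9 complement genes that each gene took, in percent, in the ctrl and M2 libraries. C4b took 41.3% and C3 10.03% in ctrl, against 1.91% and 53.2% in M2.

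By share of the reads of the 9 genes, C4b made up 50.7% of ctrl (49.5 to 52.0, by Wilson's method) but 2.57% of M2 (2.41 to 2.73). C3 made up 11.1% of ctrl (10.3 to 11.9) and 64.5% of M2 (64.0 to 65.0). C1s1 took 4.54% in ctrl (4.04 to 5.10) and 18.9% in M2 (18.5 to 19.3). The surface regulator Cd55 took 23.6% in ctrl (22.5 to 24.7) and 2.57% in M2 (2.42 to 2.74). Each share depends on the reads of all 9 genes, of which C3 had 666 in ctrl and 24213 in M2. The level of Cd55 itself was 1.54-fold lower in M2 and was not called.

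**Figure D3:**
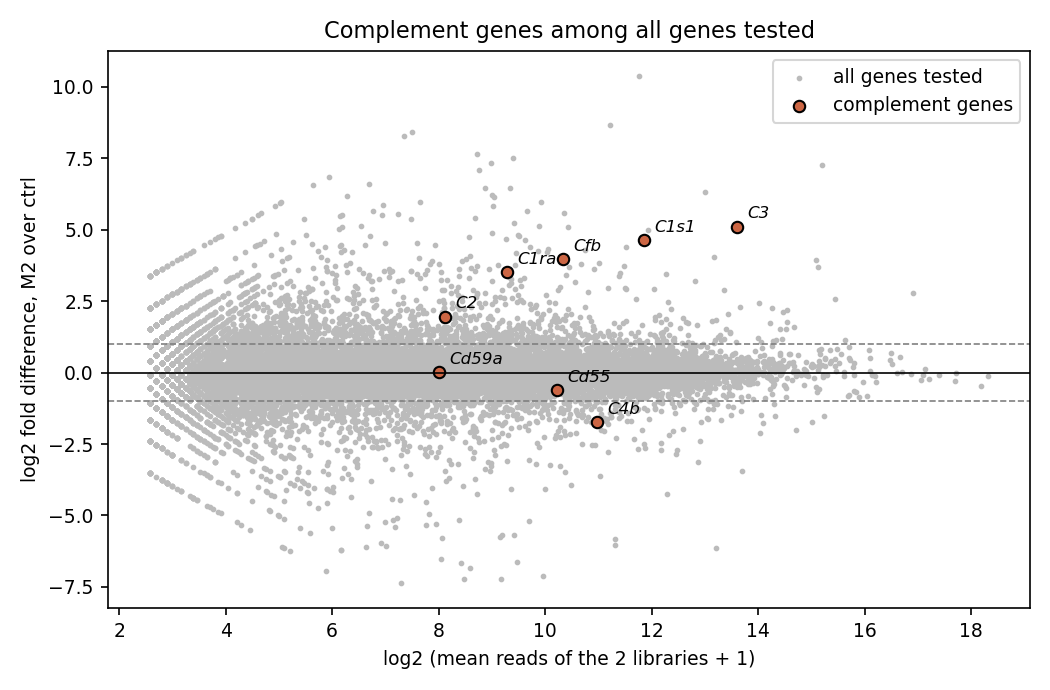
Log2 fold difference of M2 over ctrl against the log2 of the mean reads, for all 19233 genes tested (grey points) and the 8 complement genes tested (named points), with dashed lines at 2-fold. C3, C1s1, Cfb, C1ra and C2 lie above the upper line, C4b below the lower line, and Cd55 and Cd59a between them.

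The calls rested on counting error alone, and an assumed spread between cultures made fewer of them. In the exactTest of edgeR with a coefficient of variation between cultures set to 0.2, C1ra, C1s1, C2, C3 and Cfb were called higher and C4b lower, where 5.01% of all genes tested were called higher and 3.59% lower. With 0.4, C3, C1s1, Cfb and C1ra were called higher, and neither C2 nor C4b was called, where 0.91% of all genes were called higher and 0.676% lower. With a 4-fold threshold in the exact binomial test, C2 and C4b also lost their calls, and 3.2% of all genes were higher and 2.57% lower. Of the other complement genes described below, C1rb, C1s2 and Serping1 were called higher with 0.4. These spreads are assumptions, as 1 library per group gives no estimate.

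Beyond the 9 genes, 48 other genes of complement were examined by role, of which 22 had enough reads, 6 were called higher and 3 lower. Over all genes tested, 8.16% were called higher and 6.55% lower. The median log2 difference of the 22 genes was 0.80, against -0.0032 over all genes tested. Among the higher genes, beside C1rb, C1s2 and C1rl, were the soluble regulators Serping1 and Clu. Serping1, the gene of the C1 inhibitor that blocks C1r and C1s, had 69 reads in ctrl and 1332 in M2, or 2.51 and 46.2 CPM, and was 18.4-fold higher, a log2 difference of 4.18 (3.85 to 4.57). Clu, the gene of clusterin, rose from 8117 to 39328 reads and was 4.62-fold higher. Cd59b, the duplicate of Cd59a, was also called higher, with 13 and 32 reads (a log2 difference of 1.17, with an interval of 0.26 to 2.28), and lost its call with an assumed coefficient of variation of 0.2. Reads of Cd59a and Cd59b together differed by 0.10.

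Among the genes called lower were C4a, which was not called with an assumed coefficient of variation of 0.2, and Csmd2. Csmd2, a large membrane protein with complement control domains, had 46 and 3 reads, a ratio of 0.062 in M2 over ctrl with a log2 interval of -6.34 to -2.37.

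**Figure D4:**
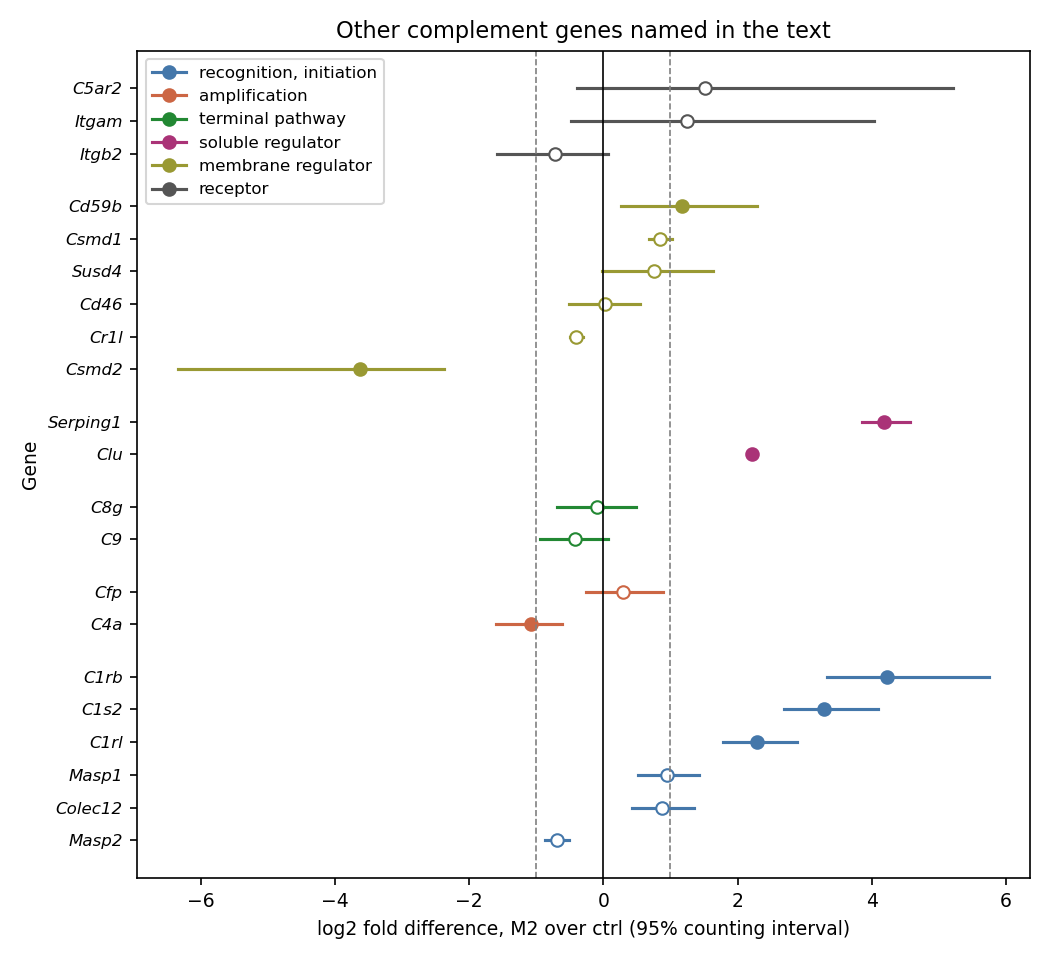
Log2 fold difference of M2 over ctrl for other complement genes with at least 10 reads, grouped and coloured by role, with bars for the 95% counting interval. Filled points were called and open points were not, and dashed lines mark 2-fold. C1rb, Serping1, C1s2, C1rl, Clu and Cd59b were called higher, and Csmd2 and C4a lower.

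The remaining 13 genes tested were not called. In the lectin pathway, the protease gene Masp1 had 63 and 129 reads (log2 difference 0.95) and Colec12, a collectin gene, 63 and 122 reads (0.87). The protease gene Masp2 had 657 and 426 reads (-0.69), but 54.9% of its exon bases overlap Tardbp on the opposite strand, a gene with 15333 and 17386 reads. Cfp, the gene of properdin, which stabilises the alternative pathway enzyme, differed by 0.30, and the terminal pathway genes C8g and C9 by -0.10 and -0.43. Of the membrane regulators, Cr1l, the gene of the rodent regulator Crry, had 1996 and 1586 reads, a log2 difference of -0.40 (-0.50 to -0.31). Csmd1 differed by 0.85, Susd4 by 0.76 and Cd46 by 0.02. Cr1l was the most abundant of these regulators by reads, and none of the 4 reached a 2-fold difference.

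Reads of the complement receptor genes were few, and many other complement genes had few or none. The receptor genes C5ar2 (2 and 8 reads), Itgam (3 and 9 reads) and Itgb2 (35 and 22 reads) were not called. Under the limit of 10 reads were 26 genes, and 16 of these had 0 reads in both libraries: C1qb, C1qc, Mbl2, Fcnb, Colec10, Colec11, C6, C7, C8a, C8b, C4bp, Vtn, Cpn1, Cd55b, C5ar1 and Vsig4. C1qa, which with C1qb and C1qc encodes the recognition part of C1, had 0 and 2 reads. The transcripts of the C1 proteases were thus present without detectable transcripts of C1q at this depth. Hc, the gene of C5, had 6 and 2 reads, and Cfd, the gene of factor D, which activates factor B, had 0 and 1.

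Markers of other cell types were read beside these values, where 8.16% of all genes tested were called higher and 6.55% lower. Of 17 macrophage markers, 6 had 0 reads in both libraries (Adgre1, Tyrobp, Fcer1g, Laptm5, Ptprc and Chil3), 12 were at or under 3 reads in ctrl and 10 in M2. The list summed to 117 CPM in ctrl and 120 in M2, while the complement genes stood at 218 and 1302. Arg1, which is not specific to macrophages, gave 54.9 and 72.5 CPM of the list's sum. Cd163 (2 and 30 reads) and Aif1 (3 and 40 reads) were called higher in M2, whereas neither Csf1r, with 94 and 92 reads, nor Cd68, with 170 and 165, was called.

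Of 16 fibroblast markers, 15 were tested, and 6 were called lower in M2 and 2 higher. The list summed to 4473 CPM in ctrl and 3172 in M2. Postn alone gave 2651 CPM of this sum in ctrl and 2491 in M2, and at -0.09 it was not called. Lower were Col1a2, Col3a1, Col5a2, Col6a3, Col14a1 and Pdgfrb, with log2 differences from -4.24 to -1.59, and Dcn and Fbln1 were higher, at 1.53 and 2.88. C4b, at -1.72, was lower like these collagen genes, and like the genes called lower in the basal and luminal lists below. C1ra, C1s1, C2, C3, Cfb and Serping1 were higher, as were Dcn and Fbln1. Of 11 basal markers 2 were called higher and 3 lower, with sums of 8434 and 8538 CPM. The higher ones were Krt17 (2.61-fold) and Procr (2.86-fold). Lgr5 was 5.79-fold lower, Oxtr 4.55-fold and Mme 2.41-fold. The sums include the abundant Krt14 and Krt5, which were not called, and so hide these differences. Of 12 luminal markers 0 were called higher and 6 lower (Esr1, Pgr, Prlr, Foxa1, Elf5 and Kit), with sums of 4614 and 3660 CPM. Whether the make-up of cell types differed between the libraries, and what part this had in the complement values, was not tested.

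**Figure D5:**
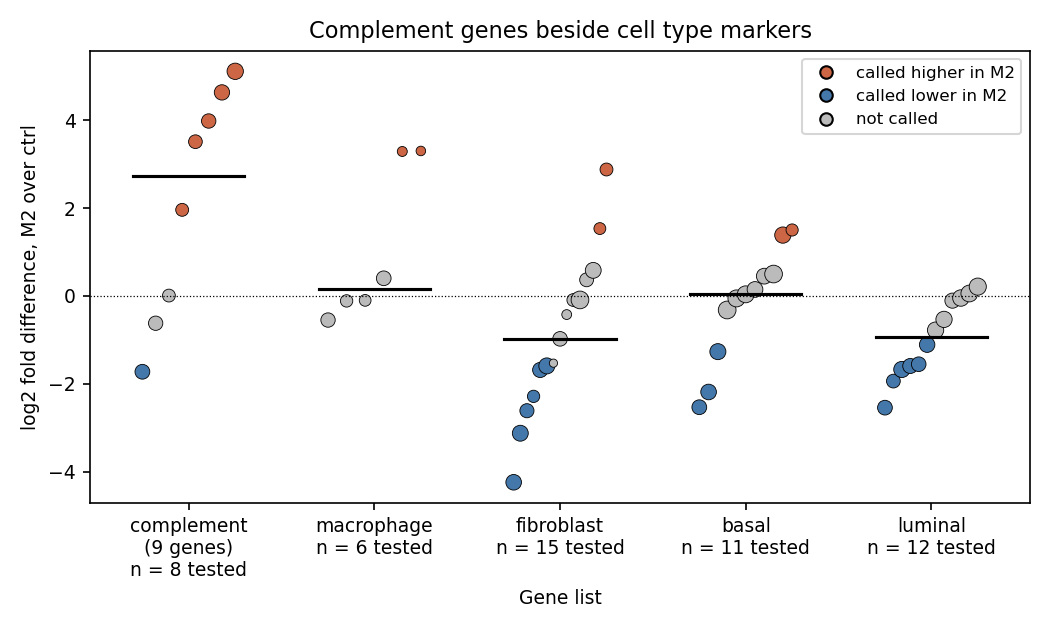
Log2 fold difference of M2 over ctrl for the complement genes tested and the tested markers of 4 cell types, where each point is a gene, orange marks a gene called higher, blue one called lower and grey one not called, point size grows with the log of its reads, and the black line is the median of the list. The medians are 2.74 for complement, 0.15 for macrophage, -0.98 for fibroblast, 0.04 for basal and -0.94 for luminal genes.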

How the data were processed

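RNA was sequenced from 1 ctrl and 1 M2 library. The authors deposited read counts for each gene, not normalized, with the exon coordinates and lengths. Per the labels a SMARTER mRNA-Seq kit was used, while the series text speaks of a microarray, and GRCm38 (mm10) is named in the submitters' processing notes. The aligner, the counting tool and the use of strand are not given in the sources used here. The start and end of the 9 genes were those of GENCODE release M21. Library sizes were scaled by TMM (factors 1.02 and 0.98) in edgeR 4.0.16 under R 4.3.3. The log2 fold difference was computed from reads plus a pseudocount of 1. Folds are ratios of CPM with no pseudocount. The reads of each gene with at least 10 summed entered an exact binomial test, two-sided, in SciPy 1.17.1, with Benjamini-Hochberg adjustment over all genes tested, and the functions were tested on simulated data. No model with replicates could be fitted. Intervals are Clopper-Pearson for differences and ratios, Poisson for levels and Wilson for shares. The members and gene lists were chosen with earlier results of these data known. All 9 members, and the other complement genes with at least 10 reads, were named by rule, and some genes that enter the counts and sums are not reported here. Of the marker lists, the genes named were partly chosen after their values were seen. Alternatives were 3 other scalings, 2 filters, 2 pseudocounts, an assumed coefficient of variation, a 4-fold threshold and sums with close duplicates. Protein sequences were not analysed here.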

Additional observations from a re-analysis of the deposited data

How the results depend on the processing

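C3, C1s1, C1ra and Cfb kept their direction and their call under each alternative tried, with log2 differences of 5.05 to 5.12, 4.57 to 4.64, 3.45 to 3.59 and 3.92 to 3.99. Cd55 ran from -0.68 to -0.62 and was called under none. C2 and C4b lost their calls with an assumed coefficient of variation of 0.4 and with a 4-fold threshold, each of which left 4 members called higher and 0 lower against 5 and 1. The median of the members was 1.96 with genes of at least 1 read included, as Cfi then entered, against 2.74. The summed difference was 2.52 with total reads as library sizes and 1.25 without C3, against 2.58.

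Of the other complement genes, 3 were higher and 1 lower when ctrl and M2 both had to reach 1 CPM, and 3 were higher and 0 lower with an assumed coefficient of variation of 0.4, against 6 and 3. Over all genes, against 1570 higher and 1260 lower, there were 797 and 583 with at least 1 CPM in both libraries, 964 and 691 with an assumed coefficient of variation of 0.2, 175 and 130 with 0.4, and 616 and 494 with a 4-fold threshold. The filter tests fewer genes. The median of all genes moved to -0.06 with total reads as library sizes. Depth limits Cfi, C1qa, C5ar2 and Itgam. No paired analysis was possible because ctrl and M2 were single libraries, which also leaves no replicate to leave out and no fit of edgeR or DESeq2 with an estimated spread.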
